A study of Mus musculus with 18 samples.

Results

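The subunits of the receptor for interleukin-4 (IL-4) and interleukin-13 (IL-13) and a set of regulators of alternative (M2) macrophage activation were followed through the bulk RNA-seq of the series. The 10 genes were matched by symbol in the table of 16314 genes, from a list drawn up with earlier results of these data known, and are Il4ra, Il13ra1, Il2rg, Egr2, Klf4, Pparg, Ppargc1b, Myc, Kdm6b and Tgm2. All 10 passed the filter on low counts, as did 12021 genes in all. Bone marrow cells from the femora of Prep-/- mice and of their heterozygous Prep+/- littermates on a C57BL6/J background were grown for 7 days with 50 ng/ml M-CSF, a growth factor that turns precursors into bone marrow-derived macrophages (BMDMs). Prep encodes prolyl endopeptidase, and every comparison of genotypes here is between cells without a working Prep gene and cells with 1 copy, since no wild-type group was analysed. The knockout was not restricted to a cell type, so that the bone marrow cells lacked the gene while they differentiated. Cells were left unstimulated (M0), or were exposed for 24 h to 50 ng/ml lipopolysaccharide (LPS), a component of the bacterial outer membrane (M1), or to 20 ng/ml IL-4 together with 20 ng/ml IL-13 (M2). Each of the 6 groups of genotype and state held 3 libraries, 18 in all. The age of the bone marrow donors and the number of animals behind each culture were not given in the sources used here.

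The IL-4 receptor α chain (Il4ra) pairs with the common γ chain (Il2rg) to form the type I receptor, which binds IL-4, and with IL-13 receptor α1 (Il13ra1) to form the type II receptor, which binds IL-4 and IL-13. Both receptors act through Janus kinases on the transcription factor STAT6. Egr2, Klf4, the nuclear receptor PPARγ (Pparg) with its coactivator PGC-1β (Ppargc1b), and Myc are transcriptional regulators known to act in the M2 programme, the histone H3K27 demethylase Kdm6b (JMJD3) is known from both inflammatory and M2 activation, and the crosslinking enzyme transglutaminase 2 (Tgm2) is a widely used M2 marker.

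The sequences just upstream of 4 of these genes are shown, because Egr2 and Klf4 had the largest rises in M2 among the members in Prep+/- BMDMs, Il13ra1 had the largest fall there, and Myc had the largest difference between genotypes. Each runs 5′ to 3′ on the strand of its gene and ends at the base before the start of the reference transcript, except that of Klf4, which stops where an annotated Klf4 exon begins. Coordinates are those of GRCm39 with the GENCODE mouse release 39 annotation. The Egr2 stretch is chr10:67373442-67373691 on the plus strand, Klf4 is chr4:55532529-55532716 on the minus strand, Il13ra1 is chrX:35375211-35375460 on the plus strand and Myc is chr15:61856977-61857226 on the plus strand. The Egr2 stretch lies within the annotated gene, in an intron of a longer transcript, and the other 3 lie just outside their genes. Capitals mark matches, on either strand, to the motif searched.
Egr2: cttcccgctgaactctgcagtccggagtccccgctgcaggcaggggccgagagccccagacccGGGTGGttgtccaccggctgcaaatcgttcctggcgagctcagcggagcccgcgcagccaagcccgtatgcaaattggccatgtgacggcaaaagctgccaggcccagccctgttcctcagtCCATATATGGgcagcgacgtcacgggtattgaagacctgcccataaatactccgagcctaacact
Klf4: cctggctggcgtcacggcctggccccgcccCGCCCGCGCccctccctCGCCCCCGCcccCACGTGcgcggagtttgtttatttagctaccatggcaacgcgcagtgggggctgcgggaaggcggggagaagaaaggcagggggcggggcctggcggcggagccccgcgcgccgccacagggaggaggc
Il13ra1: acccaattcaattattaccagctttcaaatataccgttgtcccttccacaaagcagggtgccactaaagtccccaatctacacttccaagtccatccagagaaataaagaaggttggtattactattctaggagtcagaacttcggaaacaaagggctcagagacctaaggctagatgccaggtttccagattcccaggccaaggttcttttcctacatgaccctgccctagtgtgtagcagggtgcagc
Myc: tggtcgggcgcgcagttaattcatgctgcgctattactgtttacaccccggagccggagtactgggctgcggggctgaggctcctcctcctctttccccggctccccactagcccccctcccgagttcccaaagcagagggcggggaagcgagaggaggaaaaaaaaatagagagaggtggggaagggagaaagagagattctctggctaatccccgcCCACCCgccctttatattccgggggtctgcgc
In the 250 bases before the start, Egr2 held a CArG box, the element bound by serum response factor, at 65 to 56 bases before the start, which 1.4% of 21751 promoters of that length held, and a CCACCC motif, the letters bound by Klf proteins, which 28.6% held. Klf4 held GCGNGGGCG, the letters bound by Egr proteins, at 220 to 212 and at 203 to 195 bases before the start (4.48% of promoters), and the E-box CACGTG, a motif of Myc and related factors, at 191 to 186 bases (6.26%). The Myc promoter held CCACCC, as did those of Il2rg and Kdm6b. No stretch of 250 bases before a member held the STAT6-type motif TTCNNNNGAA, which 5.89% of promoters held, or the related TTCNNNGAA, which 7.7% held. A match or its absence in these windows is a description of letters only.

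The libraries held 19068237 to 22598279 counts each, and Prep itself was at 551 to 900.0 normalized counts in the 9 Prep+/- libraries and at 31.3 to 68.1 in the 9 Prep-/- libraries, in keeping with every genotype label. Normalized counts are counts scaled to a common library size with TMM, edgeR's correction for composition. A pair of libraries stood apart from their replicates. Prep-/- M2 replicate 3 deviated from its group mean by 0.454 on the log2 scale (root mean square over genes, against 0.281 and 0.306 in replicates 1 and 2), and Prep-/- M0 replicate 3 by 0.396. All 6 macrophage markers were present in every group, with a summed level of 3388 to 11159 CPM, and this sum moved with the groups: 3388 to 3883 CPM in Prep+/- M0, 4690 to 8296 in Prep-/- M0 and 9245 to 11159 in Prep+/- M1. The 6 granulocyte precursor markers summed to 17.2 to 22.1 CPM in Prep+/- M0 and 35.8 to 83.7 CPM in Prep-/- M0. Of the 4 B cell markers analysed here, Cd79b alone was detected in Prep-/- M0, where Cd79a, Ms4a1 and Ebf1 were at 0. The part of these differences in the results on the members was not tested. In bulk RNA, fewer cells of a type and less RNA per cell cannot be told apart.

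**Figure D1:**
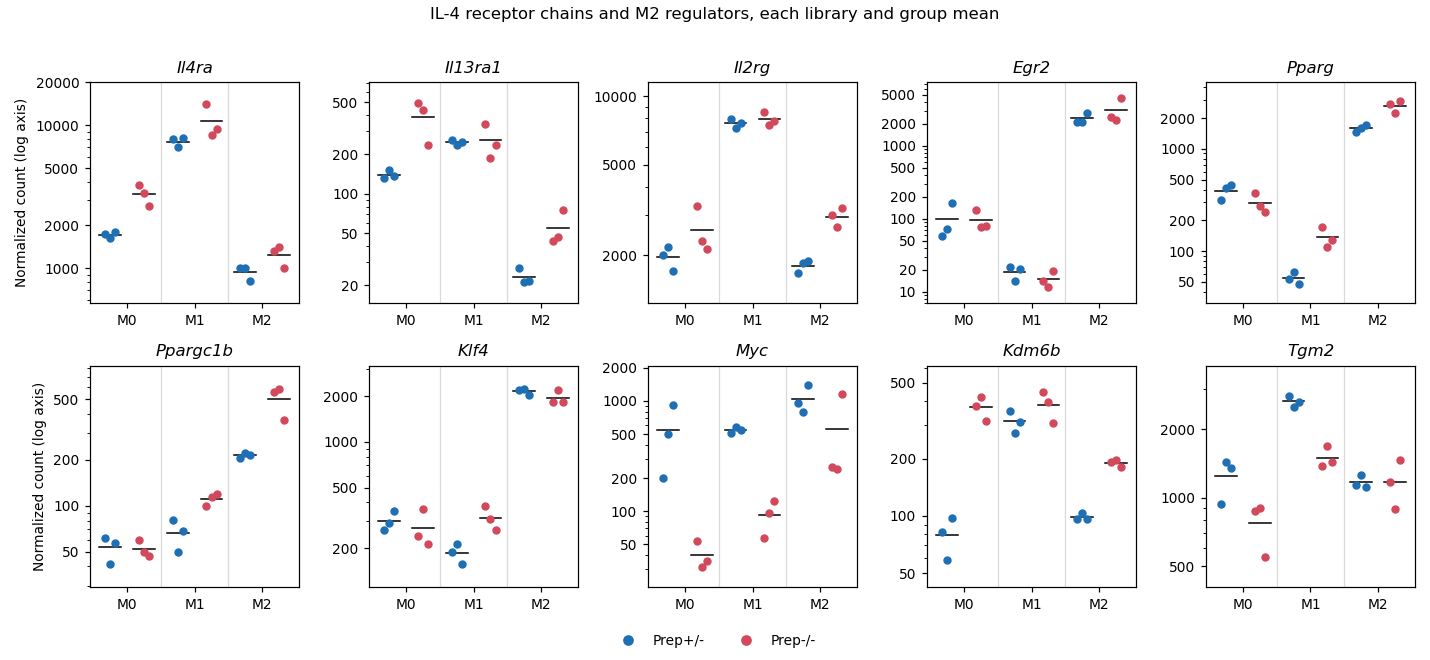
Normalized counts of the 10 genes (log axis) in each of the 18 libraries, grouped by state on the x axis and coloured by genotype, with a black line at each group mean of 3 libraries. Egr2, Pparg, Ppargc1b and Klf4 lie highest in M2, Il4ra and Il13ra1 lie lowest in M2, and Myc lies lowest in Prep-/- M0.

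Against M0, IL-4 with IL-13 raised 4 members and lowered 2 in Prep+/- BMDMs, and raised 6 and lowered 3 in Prep-/- BMDMs. A gene counts as changed where edgeR's quasi-likelihood test, fitted to all libraries, gave an adjusted p under 0.05 over the 12021 genes and the fold change exceeded 1.5. For the background, 6.09% of all genes tested rose and 6.77% fell in Prep+/-, and 14.7% rose and 15.5% fell in Prep-/-. LPS raised 5 members and lowered 3 in Prep+/-, where 16.7% of genes rose and 20.9% fell, and raised 4 and lowered 2 in Prep-/-, where 20.9% rose and 21.0% fell. Without Prep, 3 members were higher and 2 lower in M0 (background 15.4% and 17.2%), 3 were higher and 2 lower in M1 (12.3% and 10.2%), and 5 were higher and 0 lower in M2 (6.37% and 9.82%). None was lower in M2 at an unadjusted p under 0.05 either, or by DESeq2 (0 of 10), but Myc was called lower there with the replicate numbers as pairs (log2 -1.26, adjusted p = 0.0331) and without Prep-/- M2 replicate 3 (log2 -2.07, adjusted p = 0.00229). The response to IL-4 with IL-13 differed between genotypes for 4 members, against 8.66% of all genes, and the response to LPS for 4, against 21.1%. Comparisons that share M0 or Prep+/- libraries are not independent of each other. The shares of all genes given here are also the background for the counts from other gene lists below.

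Il4ra, the chain that both receptor types hold, was most abundant in M1 and least abundant in M2. Replicates 1 to 3 had 1733, 1632 and 1779.6 normalized counts in Prep+/- M0, 7936, 7001 and 8113 in Prep+/- M1 and 1000.4, 1010.2 and 818 in Prep+/- M2. They had 3824, 3332 and 2712 in Prep-/- M0, 13949, 8498 and 9359 in Prep-/- M1 and 1314, 1408 and 999 in Prep-/- M2. The states did not overlap within either genotype, and all Prep-/- M0 libraries lay above all Prep+/- M0 libraries, while the genotypes overlapped in M2. The log2 fold change in M2 was -0.86 ± 0.18 (SE, adjusted p = 0.00238) in Prep+/- and -1.41 ± 0.18 (adjusted p = 1.03e-05) in Prep-/-. LPS raised Il4ra 4.48-fold in Prep+/- and 3.22-fold in Prep-/-. The LPS responses differed by -0.48 on the log2 scale and missed the threshold (adjusted p = 0.171). Without Prep-/- M1 replicate 1 that difference was -0.72 and passed (adjusted p = 0.0263). In M0 the level without Prep was 1.92-fold higher (log2 0.94 ± 0.18, adjusted p = 0.000413). In M1 the groups did not overlap either, but the 1.38-fold difference (adjusted p = 0.0475) stayed under the fold change criterion. Without Prep-/- M1 replicate 2 the M1 difference was 0.60 on the log2 scale and met both criteria. Over all alternatives it was 0.22 to 0.60. The adjusted p was 0.0200 to 0.333 over those with the same fold change criterion. The M2 difference was 0.40, with a 95% interval of 0.02 to 0.77, and missed the threshold (adjusted p = 0.116).

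Il13ra1, the second chain of the type II receptor, had the largest fall among the members in M2. In Prep+/- the replicates held 132, 151 and 137 normalized counts in the M0 state, 256, 236 and 250.1 in M1 and 27.1, 21.3 and 21.7 in M2. In Prep-/- they held 491, 433 and 237 in the M0 state, 343, 189 and 235 in M1 and 43.7, 46.5 and 75.1 in M2. Every M2 library lay below every M0 library of its genotype, and Prep-/- lay above Prep+/- without overlap in M0 and in M2. Il13ra1 fell 5.97-fold in M2 in Prep+/- (log2 -2.58 ± 0.30, adjusted p = 1.09e-05) and 7.00-fold in Prep-/- (log2 -2.81 ± 0.28, adjusted p = 7.07e-07). It was 2.76-fold higher without Prep in M0 (adjusted p = 0.000225) and 2.35-fold higher in M2 (adjusted p = 0.00939), whereas the M1 difference was 0.05 on the log2 scale, with an interval of -0.49 to 0.58. LPS raised it 1.77-fold in Prep+/- (adjusted p = 0.0134). In Prep-/- the change with LPS was -0.60 on the log2 scale and missed the threshold (adjusted p = 0.0506). Over the alternatives with the same fold change criterion, the adjusted p was 0.00367 to 0.227. With the replicate numbers as pairs among the libraries compared, the change was -0.61 and passed, though the labels do not say what a number shares. The change also passed without Prep-/- M0 replicate 3 (-0.85) or Prep-/- M1 replicate 1 (-0.87). The LPS response itself differed between genotypes by -1.42 ± 0.36 on the log2 scale (adjusted p = 0.00957).

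Il2rg, the γ chain shared with the receptors for several other interleukins, responded to LPS. Prep+/- libraries held 2001, 2175 and 1703 normalized counts in the M0 state, 7944, 7224 and 7649.9 in M1 and 1672, 1845 and 1889 in M2. Prep-/- libraries held 3295, 2324 and 2136 in the M0 state, 8536, 7498 and 7805 in M1 and 2997, 2659 and 3228 in M2. M1 libraries stood above all others in both genotypes, and M0 and M2 overlapped. LPS raised Il2rg 3.88-fold in Prep+/- (adjusted p = 1.58e-08) and 3.07-fold in Prep-/- (adjusted p = 1.07e-07). The M2 change was -0.12 (interval -0.42 to 0.18) in Prep+/- and 0.20 (interval -0.10 to 0.49) in Prep-/- on the log2 scale. In M2 the level was 1.64-fold higher without Prep (log2 0.72 ± 0.14, adjusted p = 0.00151) and the genotypes did not overlap. In M0 the difference of 1.32-fold had an adjusted p of 0.0276 but fell short of the fold change criterion.

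Beyond the receptor chains, 12 of 14 genes of IL-4 and IL-13 signalling passed the filter. In M2, 4 rose and 2 fell in Prep+/-, and 5 rose and 3 fell in Prep-/-, with a median log2 change of 0.20 in Prep+/- and 0.13 in Prep-/- (all genes: -0.01 and -0.02). Socs1 and Cish, which encode feedback inhibitors of cytokine receptors, rose by 6.39 and 5.79 on the log2 scale in Prep+/- and by 5.15 and 4.38 in Prep-/-. The phosphatase genes Ptpn6 (SHP-1) and Inpp5d (SHIP1) fell in both genotypes, by 0.64 and 0.65 in Prep+/- and by 0.77 and 0.96 in Prep-/-. In M0, Cish (1.88) and the kinase gene Jak1 (0.65) were higher without Prep, a count of 2 that became 4 without Prep-/- M0 replicate 3 and 1 without Prep-/- M0 replicate 1 or Prep+/- M0 replicate 1. In M1, 4 were higher without Prep, among them Jak2 (0.89) and Tyk2 (0.67). In M2 edgeR called 0 of the 12 between genotypes and DESeq2 1, with 4 under an unadjusted p of 0.05, and edgeR called 2 as higher without Prep-/- M2 replicate 3 and 1 without Prep+/- M2 replicate 2. Of the other receptor subunits that pair with the γ chain, 3 of 6 passed the filter. Il7r, the IL-7 receptor chain, rose in M2 by 1.13 in Prep+/- and by 2.44 in Prep-/- and was 1.25 higher without Prep in M2, while Il21r fell in M2 by 0.95 in Prep+/- and by 2.09 in Prep-/-.

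Egr2, a zinc finger transcription factor induced early by IL-4, spanned the widest range of the members, with group means that differed up to 203-fold. In Prep+/- the libraries held 57.9, 72.7 and 165 normalized counts in the M0 state, 21.6, 14.3 and 20.5 in M1 and 2151, 2136 and 2865 in M2. In Prep-/- they held 132, 78.0 and 81.1 in the M0 state, 14.3, 11.7 and 19.4 in M1 and 2499, 2229 and 4491 in M2. The states were separated completely in each genotype, and the genotypes overlapped in each state. Egr2 rose in M2 by 4.59 ± 0.36 on the log2 scale in Prep+/- (adjusted p = 1.11e-07) and by 4.99 ± 0.36 in Prep-/- (adjusted p = 2.10e-08). LPS lowered it 5.23-fold in Prep+/- and 6.36-fold in Prep-/-. Prep+/- M0 replicate 3 was the highest M0 library, and without it the changes in Prep+/- were 5.18 in M2 and -1.78 in M1. No genotype difference passed the threshold: the log2 values were -0.03 (interval -0.77 to 0.72) in M0, -0.31 (-1.57 to 0.95) in M1 and 0.37 (-0.26 to 0.99) in M2, where the value without Prep-/- M2 replicate 3 was -0.01.

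Klf4, a Krüppel-like factor known to act with STAT6, also rose in M2. The Prep+/- libraries held 261, 293 and 351 normalized counts in the M0 state, 188, 214 and 158 in M1 and 2204, 2231 and 2045 in M2. The Prep-/- libraries held 241, 363 and 213 in the M0 state, 377, 308 and 264 in M1 and 1836, 2194 and 1842 in M2. Every M2 library lay above every M0 and M1 library, and the genotypes overlapped in M0 and M2 but not in M1. The rise in M2 was 2.84 ± 0.19 on the log2 scale in each genotype (adjusted p = 1.63e-08 in Prep+/- and 6.54e-09 in Prep-/-), and the difference between these responses was 0.01, with an interval of -0.52 to 0.53. LPS lowered Klf4 1.62-fold in Prep+/- (log2 -0.69, adjusted p = 0.00551), and without Prep+/- M0 replicate 3 the value was -0.56, under the fold change criterion. In Prep-/- the LPS change was 0.21 on the log2 scale (adjusted p = 0.337). Klf4 was 1.69-fold higher without Prep in M1 (adjusted p = 0.00616). The LPS response differed between genotypes by 0.91 ± 0.26 on the log2 scale (adjusted p = 0.0201). Over the alternatives with the same fold change criterion, the adjusted p was 0.00176 to 0.0578. The call was lost without Prep+/- M0 replicate 3 (0.79), Prep+/- M1 replicate 3 (0.80) or Prep-/- M1 replicate 1 (0.76). It was also lost under glmTreat, a test against the fold change of 1.5 itself (adjusted p = 0.261). Of 12 tested relatives among the Egr and Klf genes and the Nab corepressors, 2 rose in M2 in each genotype, with a median log2 change over the list of -0.08 in Prep+/- and -0.11 in Prep-/- (all genes: -0.01 and -0.02). Klf9 rose by 2.04 and 2.16 in the respective genotypes and Nab2, which encodes a corepressor of Egr proteins, by 0.96 and 1.15, while Egr3 fell in Prep+/- by 2.36, from a group mean of 30.1 to 5.88 normalized counts, a call of 1 gene that became 0 without Prep+/- M0 replicate 3 or Prep+/- M2 replicate 1 or 2. Egr1, an immediate early gene, differed by -3.77 on the log2 scale without Prep in M0, and this call too was lost without Prep+/- M0 replicate 3, where the count of genes of the list that were lower was 0.

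Pparg, the fatty acid-sensing nuclear receptor, rose in M2 and fell in M1. In Prep+/- the libraries held 315, 416 and 439 normalized counts in the M0 state, 53.5, 61.9 and 47.5 in M1 and 1472, 1580.0 and 1723 in M2. In Prep-/- they held 368, 275 and 242 in the M0 state, 173, 111 and 129 in M1 and 2739, 2231 and 2942 in M2. The genotypes overlapped in M0, whereas in M1 and in M2 every Prep-/- library lay above every Prep+/- library. Pparg rose 4.08-fold in M2 in Prep+/- (adjusted p = 4.82e-07) and 8.94-fold in Prep-/- (adjusted p = 1.86e-09), and the response differed between genotypes by 1.13 ± 0.25 on the log2 scale (adjusted p = 0.0101). LPS lowered it 7.16-fold in Prep+/- and 2.14-fold in Prep-/-, a difference of 1.74 ± 0.28 (adjusted p = 0.000457). Without Prep, Pparg was 2.53-fold higher in M1 (adjusted p = 0.000367) and 1.66-fold higher in M2 (adjusted p = 0.00514). The M0 difference was -0.40 on the log2 scale (adjusted p = 0.0709), and it was -0.59 and met both criteria without Prep-/- M0 replicate 1. Over all alternatives it was -0.59 to -0.28. The adjusted p was 0.0172 to 0.244 over those with the same fold change criterion.

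Ppargc1b, the coactivator PGC-1β, which is known for driving oxidative metabolism in M2 macrophages, followed Pparg in M2. Prep+/- libraries held 61.7, 41.8 and 56.8 normalized counts in the M0 state, 80.9, 50.0 and 68.0 in M1 and 206, 222 and 214 in M2. Prep-/- libraries held 59.2, 49.6 and 46.9 in the M0 state, 100.1, 114 and 119.5 in M1 and 558, 582 and 364 in M2. The genotypes overlapped in M0 and were apart in M1 and in M2, with Prep-/- above. It rose 4.01-fold in M2 in Prep+/- (adjusted p = 3.38e-06) and 9.64-fold in Prep-/- (adjusted p = 5.89e-09), a difference in response of 1.27 ± 0.29 on the log2 scale (adjusted p = 0.0139). Its level in M2 was 2.34-fold higher without Prep (adjusted p = 0.000250). LPS raised it 2.14-fold in Prep-/- (adjusted p = 0.000359), with a change of 0.31 (interval -0.15 to 0.78) in Prep+/-. In M1 it was 1.68-fold higher without Prep (adjusted p = 0.0133), a call lost without Prep+/- M1 replicate 2 (log2 0.58). The difference between the LPS responses was 0.79 (adjusted p = 0.0727) and passed without Prep+/- M0 replicate 2 (0.95) or Prep+/- M1 replicate 1 (0.96). Over all alternatives this difference was 0.62 to 0.96. The adjusted p was 0.0402 to 0.176 over those with the same fold change criterion.

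Among the PPAR and RXR receptors and coregulators, 6 of 9 passed the filter. The partner receptor genes Rxrb (0.87 on the log2 scale) and Rxra (0.61) and the sister receptor gene Ppard (0.76) were higher without Prep in M0, with a median difference of 0.59 over the 6 genes (all genes: 0.02). Of 8 tested PPAR target genes, 3 rose and 0 fell in M2 in Prep+/-, where 0 were lower at an unadjusted p under 0.05 or by DESeq2, and 5 rose and 1 fell in Prep-/-, with a median log2 change of 0.30 in Prep+/- and 1.16 in Prep-/- (all genes: -0.01 and -0.02). The lipid chaperone gene Fabp4 rose by 2.64 in Prep+/- and by 4.49 in Prep-/-, and the difference of 1.85 between the responses passed the test (adjusted p = 0.00611). In M2, Fabp4 was 1.95 higher without Prep, from group means of 1826 normalized counts in Prep+/- and 7058 in Prep-/-, and in M1 it was 2.54 higher. Of the 8 genes, edgeR called Fabp4 alone between genotypes in M2 and in M1. The median difference over the 8 was 0.24 in M2 and -0.05 in M1 (all genes: 0.03 and 0.04). The scavenger receptor gene Cd36 rose by 1.12 in Prep+/- and by 2.60 in Prep-/- in M2, and the LXRα gene Nr1h3 by 0.72 and by 1.41. The M2 response differed between genotypes for 2 of the 8, Fabp4 and Plin2 (0.74), and was not called different for Cd36 or Nr1h3. In M2 the group means of Cd36 were 38251 in Prep+/- and 39817 in Prep-/-, and those of Nr1h3 were 411 and 467. The count of 3 that rose in M2 in Prep+/- became 1 when any library of that comparison but Prep+/- M0 replicate 2 was left out. Angptl4, which encodes an inhibitor of lipoprotein lipase, fell in M2 in Prep-/- (log2 -1.01, adjusted p = 0.0470), a call lost without Prep-/- M0 replicate 1 or 3 or Prep-/- M2 replicate 2 or 3. Without Prep in M0, Cd36 was lower (log2 -1.42) and Angptl4 higher (log2 1.10, adjusted p = 0.0294), the latter call being lost without Prep+/- M0 replicate 2 or 3 or Prep-/- M0 replicate 1.

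Myc, the bHLH regulator of growth and ribosome synthesis, had the largest genotype differences of the members. Prep+/- libraries held 202, 505 and 918 normalized counts in the M0 state, 516, 577 and 541 in M1 and 954, 791 and 1385 in M2. Prep-/- libraries held 54.2, 31.0 and 35.2 in the M0 state, 57.2, 96.0 and 124 in M1 and 254, 242 and 1167 in M2. In M0 and in M1 all Prep-/- libraries lay below all Prep+/- libraries, and in M2 replicates 1 and 2 did while replicate 3 lay inside the Prep+/- range. Myc was 13.6-fold lower without Prep in M0 (log2 -3.76 ± 0.64, adjusted p = 0.000175) and 5.89-fold lower in M1 (log2 -2.56 ± 0.59, adjusted p = 0.00376). The M0 value was -3.16 without Prep+/- M0 replicate 3. In M2 the difference was -0.91 ± 0.53 and missed the threshold (adjusted p = 0.226, range over the alternatives 0.00229 to 0.532). Without Prep-/- M2 replicate 3, whose 60.9 normalized counts of Prep fall in the range of its group, the M2 difference was -2.07 and passed, and with the replicate numbers as pairs it was -1.26 and passed. Myc rose 13.9-fold in M2 in Prep-/- (log2 3.79 ± 0.64, adjusted p = 0.000163), or by 2.63 without Prep-/- M2 replicate 3. In Prep+/- the M2 change was 0.94 ± 0.53 (adjusted p = 0.244). The difference between these responses was 2.85 ± 0.82 on the log2 scale (adjusted p = 0.0376). That call was lost under 11 of 21 alternatives, with values of 1.69 to 3.24 and adjusted p of 0.0125 to 0.118 over those that use the same fold change criterion, and the value was lowest without Prep-/- M2 replicate 3. With LPS, Myc changed by 0.01 (interval -1.11 to 1.12) in Prep+/- and by 1.21 in Prep-/- (adjusted p = 0.131), where the M0 and M1 libraries did not overlap and the fit with paired numbers gave 1.15 and passed.

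The 16 Myc target genes on the list, most of them for ribosome assembly and nucleotide or polyamine synthesis, were all tested. Without Prep, 14 were lower in M0 (median log2 difference -1.35, all genes 0.02), 15 in M1 (median -1.20, all genes 0.04) and 1 in M2 (median -0.33, all genes 0.03). None was higher in any state by edgeR, by DESeq2 or at an unadjusted p under 0.05 (0 of 16 each), and 7 were lower in M2 at an unadjusted p under 0.05. The M2 count was 3 lower with the replicate numbers as pairs among the libraries compared and 2 with pairs over all libraries, and it was 9 without Prep-/- M2 replicate 3 and 0 without Prep-/- M2 replicate 1. In M0, Cad, which encodes the enzyme that starts pyrimidine synthesis, was lower by 2.35, the spermidine synthase gene Srm by 2.33 and the nucleolar protein gene Nop58 by 1.98. In M2, 2 of the 16 rose in Prep+/- (Gnl3 by 0.82 and Apex1 by 0.80), or 1 when Prep+/- M0 replicate 1 or 2 or Prep+/- M2 replicate 1 or 3 was left out, and 13 rose in Prep-/-, led by Srm (2.53) and Gnl3 (2.13), and the response differed for 7. That count of 7 fell to between 0 and 3 when Prep+/- M0 replicate 2 or 3, Prep+/- M2 replicate 1 or 2, Prep-/- M0 replicate 2 or 3, or Prep-/- M2 replicate 3 was left out. The geometric mean of the 16 genes was 1157 to 1457 normalized counts in Prep+/- M0, 523 to 587 in Prep-/- M0, 1504 to 1819 in Prep+/- M2, and 1037, 961 and 1816 in replicates 1, 2 and 3 of Prep-/- M2. In replicate 3 of Prep-/- M2, 14 of the 16 were higher than in both other replicates, and 42.2% of all genes tested were. Of the Myc network genes, among them Max, its Mxd partners, the related Mlx and the Myc-binding factor gene Zbtb17, 9 of 11 passed the filter. Without Prep in M0, Mxd4, an antagonist of Myc at Max, was higher (log2 difference 1.40) and Mxd3, of the same family, was lower (-1.97), and Mxd1, another antagonist, was 2.49 higher in M1. In all, 2 of the 9 were higher in M0, or 1 without Prep+/- M0 replicate 2 or Prep-/- M0 replicate 1.

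**Figure D2:**
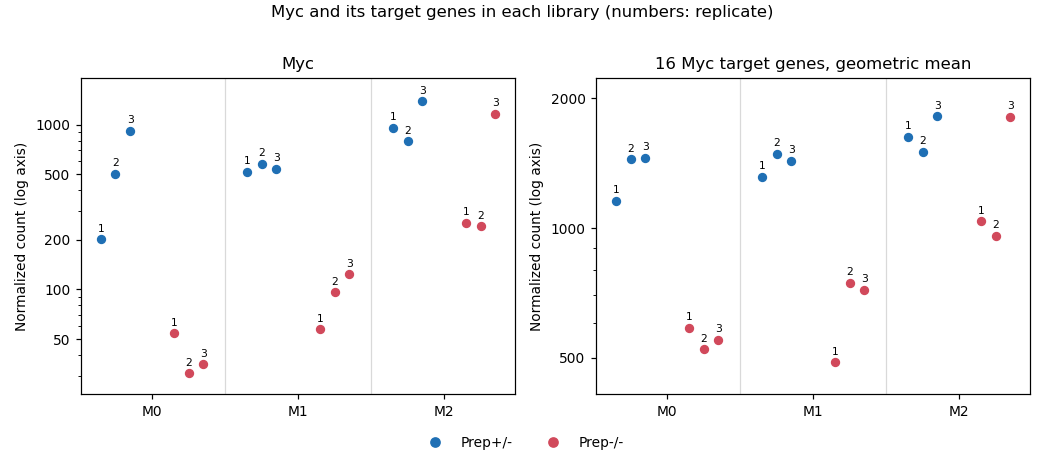
Normalized counts of Myc (left) and the geometric mean of 16 Myc target genes (right), both on log axes, in each library by state and genotype, with the replicate number above each point. All 3 Prep-/- libraries lie below all Prep+/- libraries in M0 and in M1, and in M2 replicate 3 of Prep-/- (Myc at 1167) lies apart from replicates 1 and 2 (254 and 242).

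Kdm6b, the H3K27 demethylase, was raised by LPS in Prep+/-, and in unstimulated Prep-/- cells its level overlapped that of the LPS-treated Prep+/- cells. Prep+/- libraries held 82.0, 58.5 and 97.5 normalized counts in the M0 state, 357, 272 and 312 in M1 and 96.5, 104 and 96.3 in M2. Prep-/- libraries held 376, 421 and 315 in the M0 state, 444, 394 and 308 in M1 and 193, 196 and 181 in M2. The genotypes were apart in M0 and in M2 and overlapped in M1. Without Prep, Kdm6b was 4.67-fold higher in M0 (log2 2.22 ± 0.19, adjusted p = 4.70e-07) and 1.92-fold higher in M2 (adjusted p = 0.00140), with a log2 difference of 0.28 in M1 (interval -0.08 to 0.65). LPS raised it 3.95-fold in Prep+/- (adjusted p = 1.92e-07) against a log2 change of 0.04 (interval -0.32 to 0.41) in Prep-/-, and the responses differed by -1.94 ± 0.25 (adjusted p = 8.32e-05). In M2 it changed by 0.32 (adjusted p = 0.276) in Prep+/- and fell 1.96-fold in Prep-/- (adjusted p = 0.000320), a difference of -1.29 ± 0.26 between the responses (adjusted p = 0.00683). The other 8 enzymes and subunits of H3K27 methylation were all tested. In M0, 3 were higher without Prep, including the related demethylase gene Kdm6a (0.71) and the methyltransferase gene Ezh1 (0.60), and 3 were lower, including the methyltransferase gene Ezh2 (-1.47) and Rbbp7 (-1.51), which encodes a histone-binding subunit. Without Prep-/- M0 replicate 1, 1 was higher. Of all genes tested, 15.4% were higher and 17.2% lower without Prep in M0. In M2 Ezh2 (-1.41) and Rbbp7 (-0.93) were lower without Prep.

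Tgm2, the transglutaminase used as an M2 marker, had its highest group mean in M1 in each genotype. Prep+/- libraries held 937, 1437 and 1350.4 normalized counts in the M0 state, 2814, 2510.2 and 2638 in M1 and 1141, 1261 and 1116 in M2. Prep-/- libraries held 879, 904 and 549 in the M0 state, 1387, 1685 and 1432 in M1 and 1176, 892 and 1464 in M2. LPS separated M1 from M0 in each genotype, while M2 overlapped with M0 in each. M1 and M2 overlapped in Prep-/- but not in Prep+/-, and M1 was not tested against M2. Tgm2 rose 2.14-fold with LPS in Prep+/- (adjusted p = 0.000187) and 1.93-fold in Prep-/- (adjusted p = 0.000650). In M2 the log2 change was -0.08 (interval -0.50 to 0.33) in Prep+/-. In Prep-/- it was 0.60, or 1.51-fold (adjusted p = 0.0215, range over the alternatives 0.00510 to 0.196), a call lost under 6 of 15 alternatives, among them leaving out Prep-/- M0 replicate 3 (0.40) or Prep-/- M2 replicate 3 (0.41). Without Prep it was 1.60-fold lower in M0 (log2 -0.68, adjusted p = 0.00992) and 1.77-fold lower in M1 (adjusted p = 0.00471), and the M2 difference was 0.01 (interval -0.41 to 0.42). The M0 call was lost without Prep-/- M0 replicate 3 (-0.48) or Prep+/- M0 replicate 2 (-0.58). F13a1, the transglutaminase coagulation factor XIII A, fell in M2 by 1.56 in Prep+/- and by 3.14 in Prep-/- and was 1.68 higher without Prep in M0.

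**Figure D3:**
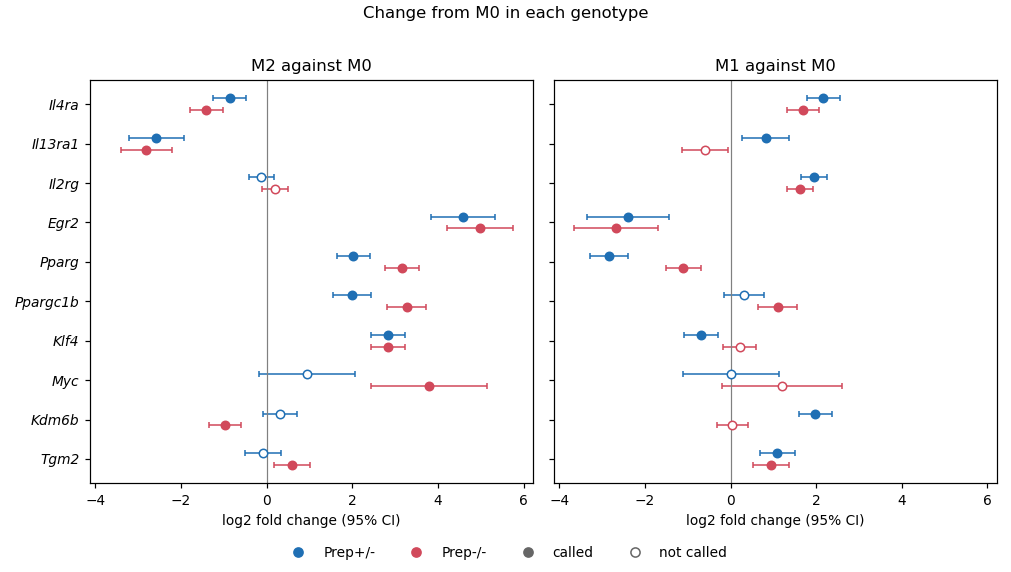
The log2 fold change of M2 (left) and M1 (right) against M0 for each gene, with 95% intervals, in Prep+/- and Prep-/- BMDMs of 3 libraries a group. Filled points passed the test. Egr2 has the largest rise in M2 in each genotype (4.59 and 4.99). The M2 responses of Pparg, Ppargc1b, Myc and Kdm6b differ between genotypes by the test, a call lost for Myc under 11 of 21 alternatives.

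**Figure D4:**
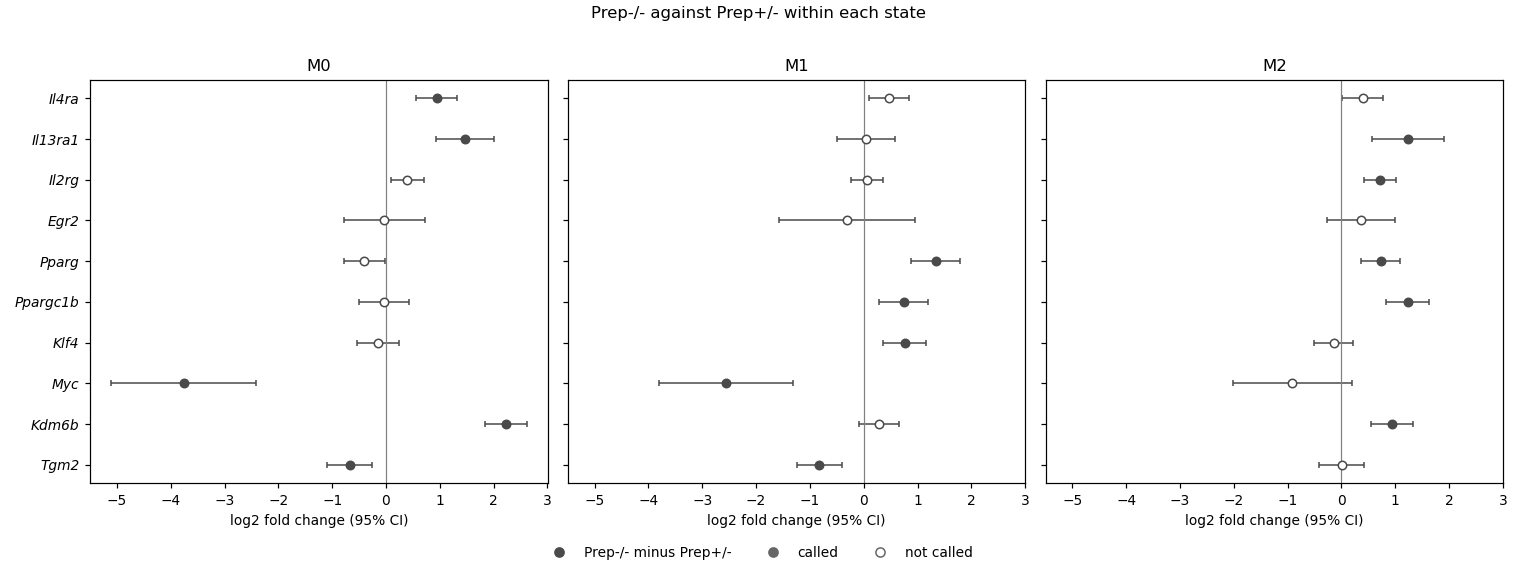
The log2 fold change of Prep-/- against Prep+/- for each gene within M0, M1 and M2, with 95% intervals and 3 libraries a group. Filled points passed the test. Myc lies at -3.76 in M0 and -2.56 in M1, Kdm6b at 2.22 in M0, and the 5 filled points in M2 all lie above 0.

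Beside the members, 16 of 17 tested alternative activation genes rose in M2 in each genotype, against 6.09% of all genes in Prep+/- and 14.7% in Prep-/-. The median log2 change was 4.66 in Prep+/- and 5.02 in Prep-/- (all genes: -0.01 and -0.02). Arg1, Mrc1, Chil3 and Retnla of this list are markers that the study used to judge polarization in these samples, so that the count is not independent evidence of its direction. Arg1 rose by 9.89 in Prep+/- and by 9.17 in Prep-/-. Between genotypes in M2, 4 of the 17 were higher without Prep, including Ccl24 (2.09) and Chil3 (1.61), and 3 were lower, including Arg1 (-2.30) and Mrc1 (-0.65). Of all genes tested, 6.37% were higher and 9.82% lower in that comparison.

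Per kilobase of annotated exon, the members differed widely in level over the 18 libraries. Il2rg had the highest mean, 82.0 RPKM, followed by Il4ra (20.1), Tgm2 (14.0) and Egr2 (13.2), while Ppargc1b (1.36), Kdm6b (1.62) and Il13ra1 (1.85) had the lowest. In Prep+/- M0, where the cytokines were absent, Il2rg was at 38.8 RPKM, Il4ra at 8.12 and Il13ra1 at 1.40. In the order of group means, the groups next to each other were mostly apart for Il4ra, where Prep-/- M2 and Prep+/- M2 alone overlapped among neighbours, and mostly overlapping for Il2rg, where Prep+/- M1 and Prep-/- M2 alone were apart.

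The gene most like each member over the 18 libraries was sought among 9601 genes by the Pearson correlation of log2 CPM. It was Trim30a for Il4ra (0.990), Lpin2 for Il13ra1 (0.970), Rnf149 for Il2rg (0.986), Ado for Egr2 (0.983), Flt1 for Klf4 (0.983), Olfm1 for Pparg (0.990), Cipc for Ppargc1b (0.983), Srm for Myc (0.976), Gas7 for Kdm6b (0.974) and Mtrr for Tgm2 (0.952). These values describe libraries that share state, genotype and scaling. After the group means were removed, the correlations were lower for every pair. They were 0.896 for Srm with Myc, 0.784 for Mtrr with Tgm2, 0.770 for Trim30a with Il4ra and 0.737 for Lpin2 with Il13ra1. Those of Rnf149 with Il2rg (0.654), Olfm1 with Pparg (0.585) and Gas7 with Kdm6b (0.536) followed. The lowest were those of Flt1 with Klf4 (0.524), Ado with Egr2 (0.409) and Cipc with Ppargc1b (0.397).

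All 10 members are annotated protein-coding genes with 1 locus each. Klf4 has stretches of 175 to 242 bases that match annotated genes elsewhere (Gm48640, Gm71760 and Gm48923) at 91.3% to 98.9% identity, so that reads there could be split. Il4ra, Il13ra1, Egr2, Pparg, Ppargc1b, Myc, Kdm6b and Tgm2 overlap a gene on the opposite strand, and Kdm6b and Ppargc1b also overlap genes on their own strand. The kit marks strand, but whether the counting used it was not given in the sources used here.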

How the data were processed

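RNA-seq counts of 18 BMDM libraries were analysed, 3 in each of 6 groups of genotype and state named in the sample titles. Per the labels and the study's methods, the authors trimmed reads with Trimmomatic (0.36), aligned them to GRCm39 with HISAT2 (2.2.1.0) at its default settings and built transcripts with StringTie, from which the count table came. Counts taken from assembled transcripts can divide reads between overlapping genes. The deposited values are raw counts, 1 column a library, for 16314 gene symbols. The annotation release and the strand setting of the counting were not given in the sources used here.

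Counts were scaled with TMM, 12021 genes passed edgeR's filterByExpr, and edgeR's quasi-likelihood test (edgeR 4.0.16, R 4.3.3) was fitted to all libraries with 1 coefficient a group. Adjusted p is Benjamini-Hochberg over all genes tested, and a gene was called at an adjusted p under 0.05 with a fold change over 1.5, the study's criteria. Differences of response are contrasts of the same fit. Normalized counts are counts on the mean effective library size, and CPM and RPKM were computed from the same counts, the latter with exon lengths of GENCODE release 39 (GRCm39). DESeq2 1.42.0, RLE size factors, other filters, glmTreat (a test against the fold change of 1.5 itself), a replicate block and leaving out each library were the alternatives. Named genes were the members, the gene most like each, and up to 3 called genes in each direction for each of 10 pathway lists and comparison. The members and lists were chosen with earlier results of these data known. The fits were tested before use on simulated counts, for the comparison of genotypes in M0 alone. There edgeR recovered 61.3% of genes changed by a log2 of 1 and 89.4% of those changed by 2. Of its calls, 6.9% were false. DESeq2 recovered 68.9% and 89.4%, and 12.3% of its calls were false.

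The labels number the replicates 1 to 3 in each group and do not say what a number shares. The study calls them biological replicates, and p-values measure the spread between them. Same-numbered libraries deviated together from their group means with correlations of 0.249, 0.255 and 0.462 between Prep+/- and Prep-/- in M2. Between M0 and M1 in Prep-/- the correlations were 0.201, 0.169 and 0.259. The main fit was unpaired throughout. For these 2 comparisons a fit with the numbers as pairs is given beside it, on this evidence from the data alone. They were picked after the correlations of all pairs of groups had been seen. In every other pair of groups, at least 1 of the 3 correlations was lower than 0.169 or negative. The correlations were 0.0598, 0.176 and 0.00963 between M0 and M2 in Prep-/-, and 0.183, 0.0540 and 0.138 between M1 and M2 in Prep-/-. Between genotypes in M0 they were -0.107, -0.0393 and -0.315. Pairs of libraries within a group differed by more than counting noise.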

Additional observations from a re-analysis of the deposited data

Results flagged for a closer look

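In 8 cases the response of a member differed between genotypes by the test of the difference itself, taken as the response in Prep-/- minus that in Prep+/- on the log2 scale. For IL-4 with IL-13, where 8.66% of all genes were called, the differences were 1.13 for Pparg, 1.27 for Ppargc1b, 2.85 for Myc and -1.29 for Kdm6b. For LPS, where 21.1% of all genes were called, they were 1.74 for Pparg, -1.42 for Il13ra1, 0.91 for Klf4 and -1.94 for Kdm6b. Both sets share the M0 libraries, in which Myc, Kdm6b and Il13ra1 already differed between genotypes. The Myc call was lost under 11 of 21 alternatives and the Klf4 call under 4 of 21.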

How the results depend on the processing

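Over 90 member results and their alternatives, 1377 values kept direction and side of the threshold, 41 fell below it, 19 passed it and 33 changed sign. Under glmTreat the count of members called went from 5 to 2 between genotypes in M1, from 5 to 1 in M2, from 4 to 0 for the difference of the M2 responses and from 4 to 2 for that of the LPS responses. In this test the fold change of 1.5 is part of the null hypothesis. The share of all genes called under it is not given here, so these counts do not set the members apart from other genes. The changes of sign were in values that did not pass the test in either fit. Myc with LPS in Prep+/- was -0.016 at the stricter count filter, and the difference of the Klf4 responses to IL-4 with IL-13 was -0.0048 there and -0.022 with only the libraries compared. With 1 library left out, Egr2 ranged from -0.32 to 0.55 between genotypes in M0, from -0.012 to 0.55 in M2, and from -0.21 to 0.68 and from -0.87 to 0.0031 for the differences of the M2 and LPS responses. Il13ra1 ranged from -0.22 to 0.22 between genotypes in M1, Kdm6b from -0.080 to 0.18 with LPS in Prep-/-, and Klf4 from -0.43 to 0.0023 between genotypes in M0 and from -0.14 to 0.27 for the difference of the M2 responses. Myc ranged from -0.38 to 0.63 with LPS in Prep+/-, and Ppargc1b from -0.21 to 0.050 between genotypes in M0. Tgm2 ranged from -0.26 to 0.025 in M2 in Prep+/-, from -0.18 to 0.18 between genotypes in M2 and from -0.34 to 0.031 for the difference of the LPS responses.

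The replicate block on only the libraries compared gave 6 members between genotypes in M2 and 8 for LPS in Prep-/-, against 5 and 6 in the main fit. In these 2 comparisons it changed no member's call but those given for Myc and Il13ra1. In the other comparisons, where same-numbered libraries did not all deviate together, that fit gave 3 to 8 members called. The share of all genes called with the block is not given here either. Signs changed under the block for Egr2 between genotypes in M0 (0.068 with all libraries, 0.072 with only those compared), Il13ra1 in M1 (-0.0021), Tgm2 in M2 (-0.019) and the difference of the Klf4 responses to IL-4 with IL-13 (-0.0076). Tgm2 in M0 and in M2 in Prep-/- lost the call there, as did the difference of the Myc responses to IL-4 with IL-13, and Myc in M2 in Prep+/- gained it. With 3 libraries a group, the 95% intervals around a comparison of 2 groups were widest for Myc and for Egr2 in M1.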

Other observations

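In Prep-/- M2 replicate 3, 6 of the 10 members were higher and 3 lower than in both other replicates, against 42.2% and 41.5% of all genes tested. Over the 18 libraries the markers of other cell types summed to 0 to 0.377 CPM for the erythroid list, 0 to 0.863 CPM for mast cells and basophils (2 of 6 markers in the table), 0 to 0.0479 CPM for T and NK cells (1 of 6), 0.101 to 2.83 CPM for dendritic cells, 1.01 to 11.5 CPM for B cells (4 markers) and 0.0839 to 21.5 CPM for stromal cells. Among the transglutaminase genes, Tgm1 was 1.58 higher on the log2 scale without Prep in M0 and rose with LPS by 2.68 in Prep+/- and by 1.20 in Prep-/-.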
